A study of Mus musculus with 2 samples.

Results

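The proteasome subunit genes were taken as every gene of the count matrices whose symbol is Psma, Psmb, Psmc, Psmd, Psme, Psmf or Psmg followed by a number, which gave 48 of 32285 genes. They divide into 8 genes of the alpha rings and 8 of the beta rings of the core, 3 immunoproteasome genes, 9 genes of the base, 8 of the lid, 4 activators, 1 inhibitor and 7 assembly chaperones. The 26S proteasome degrades proteins that carry ubiquitin chains. Its barrel-shaped core is built of alpha rings, which gate the entry, and beta rings, which hold the proteolytic sites. The base unfolds the substrate with a ring of ATPases (*Psmc1* to *Psmc6*), and the lid removes the ubiquitin chain through the deubiquitinase *Psmd14*. In cells exposed to interferon the catalytic subunits *Psmb6*, *Psmb7* and *Psmb5* are replaced by *Psmb9*, *Psmb10* and *Psmb8*, which changes the peptides offered to MHC class I molecules. In brain tissue the proteasome is one of the routes by which tau is cleared.

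Single-nucleus RNA sequencing of the hippocampus was available as 1 library per genotype. Both libraries came from pooled male mice, 9 months of age, that carried the human Tau P301S transgene under the mouse prion protein promoter, which drives it in neurons above all. The PS19 library had an intact *Zbp1* gene (PS19+/- Zbp1+/+), and the PZKO library lacked it (PS19+/- Zbp1-/-). ZBP1 senses left-handed nucleic acid and starts inflammatory signaling and cell death. The animals were littermates, no group without the tau transgene was used here, and the counts carry no label of the single animal. With 1 library per genotype there was no replicate check, and genotype and library cannot be told apart. No p-value was therefore computed, and every interval below is a 95% interval for counting error only.

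The libraries held 9590 PS19 and 9307 PZKO nuclei after filtering, with 100729375 and 151995959 unique molecular identifiers (UMIs, counted transcripts), and 47 cell barcodes occurred in both libraries. Clustering gave 38 clusters, of which 34 were named from lists of marker genes into 14 classes, called here excitatory neuron-like, inhibitory neuron-like, oligodendrocyte-like, OPC-like (oligodendrocyte precursor), astrocyte-like, microglia-like and so on, and referred to below by the class name alone. The PZKO library was deeper in each of the 6 main classes, with a median of 4171 to 29831 UMIs per nucleus against 3311 to 19982.5 in PS19. *Zbp1* was counted with 92 PS19 and 38 PZKO UMIs over all nuclei (log2 ratio -1.87, -2.45 to -1.31). In microglia it had 48 PS19 and 20 PZKO UMIs, so transcript of the targeted locus was still counted in the library labelled Zbp1-deficient. Levels are given as UMIs per 1000000 UMIs of the class (CPM), and differences as the log2 ratio of PZKO over PS19. The 95% interval of a ratio follows it in square brackets, and where values are joined by "and" without a library name the PS19 value comes first. A gene or sum is called lower or higher where that interval lies on 1 side of 0.

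Sequence near the start of the exchanged catalytic subunits except *Psmb7* is shown, because these subunits replace one another and much of what follows turns on them. RefSeq promoter windows (GRCm38.p6, 250 bases before to 50 after the start) were at hand for 40 of the 48 members, in 43 windows. *Psmb7* had none. Motifs were searched on both strands. The core of the antioxidant response element (TGANNNNGC), bound by factors of the Nrf family such as the proteasome regulator *Nfe2l1*, was in 58.1% of member windows and in 41.3% of all 32851 windows. Each of the 5 windows of core beta genes held it. The interferon-stimulated response element core was in 11.6% of member windows against 3.4% of all, in *Psmb3*, *Psmd4*, *Psmd9*, *Psme1* and *Psmg4*. The gamma-activated sequence core (TTCNNNGAA) was in 7.0% against 8.3%, and the NF-kB core in 20.9% against 20.7%. For *Psmb5* and *Psmb6*, which are replaced on interferon exposure, and for *Psmb10* the part before the annotated gene is given. For *Psmb8* and *Psmb9* only the bases around a match before the start are given, since they lie in an untranslated exon, ahead of the start codon, of an annotated GENCODE transcript. Capitals mark a motif match, and all sequences read 5′ to 3′ on the strand of the gene.
Psmb5: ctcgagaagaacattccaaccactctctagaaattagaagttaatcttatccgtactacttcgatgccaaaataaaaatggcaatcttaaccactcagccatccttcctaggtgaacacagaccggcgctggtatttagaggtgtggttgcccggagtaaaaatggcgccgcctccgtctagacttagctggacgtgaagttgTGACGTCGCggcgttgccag
Psmb6: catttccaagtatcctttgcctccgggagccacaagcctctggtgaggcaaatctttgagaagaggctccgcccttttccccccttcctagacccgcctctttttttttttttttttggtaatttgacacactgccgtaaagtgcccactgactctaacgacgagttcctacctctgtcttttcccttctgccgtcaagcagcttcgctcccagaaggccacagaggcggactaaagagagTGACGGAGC
Psmb10: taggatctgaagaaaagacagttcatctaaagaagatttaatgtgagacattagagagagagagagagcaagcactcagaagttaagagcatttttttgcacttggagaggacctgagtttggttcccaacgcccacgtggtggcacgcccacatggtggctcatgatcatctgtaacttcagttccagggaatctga
Psmb8: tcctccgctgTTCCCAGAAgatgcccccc
Psmb9: ccttgcgcgaTGATGGGGCggggcctcag
The stretch of *Psmb5* (chr14:54618023-54618245, minus strand) lies in no annotated gene and holds an antioxidant response element core 47 to 39 bases before the start. The *Psmb5* window has another such core, which does not lie wholly before the start and is not shown. The stretch of *Psmb6* (chr11:70525107-70525356, plus strand) is likewise outside annotated genes and holds such a core directly before the start, at 9 to 1 bases. *Psmb10* (chr8:105938445-105938642, minus strand) overlaps the antisense gene *Gm16156* there and has no match to the 4 motifs. *Psmb8* (chr17:34198088-34198116, plus strand) holds a gamma-activated sequence core, its window has an antioxidant response element core too, which reaches past the start and is not shown, and *Psmb9* (chr17:34187372-34187400, minus strand) an antioxidant response element core. A match is a description of these letters and not a bound site.

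The summed transcripts of the 33 core, base and lid genes (26S sum) were lower in PZKO than in PS19 in all 6 main classes, by a few percent in neurons and by more in oligodendrocytes and astrocytes. In oligodendrocytes, the myelinating cells, the 26S sum was 1722 CPM in PS19 and 1457 CPM in PZKO (log2 ratio -0.24 [-0.27 to -0.21]). Astrocytes had 1494 CPM in PS19 and 1272 CPM in PZKO, a ratio of -0.23 [-0.27 to -0.20]. OPC followed with 1214 CPM in PS19 and 1089 CPM in PZKO and -0.16 [-0.24 to -0.069]. Microglia, the resident macrophages, had 1761 CPM in PS19 and 1598 CPM in PZKO and -0.14 [-0.19 to -0.086]. The ratio was -0.12 [-0.13 to -0.11] in excitatory neurons, where the sums were 1316 and 1213 CPM, and -0.082 [-0.11 to -0.053] in inhibitory neurons, where they were 1361 and 1286 CPM. The intervals of oligodendrocytes and astrocytes overlapped each other and lay below those of both neuron classes, while those of OPC and microglia overlapped the interval of excitatory neurons. The median over all genes with at least 100 UMIs was also below 0 in every class, from -0.072 in excitatory neurons to -0.018 in microglia. By cluster, the sum was below 0 in 35 of 37 clusters with nuclei in both libraries and lower, past the interval, in 26 of them. With edgeR's TMM scaling the ratio was nearer to 0 in excitatory neurons (-0.053) and inhibitory neurons (-0.050), and without removal of doublets it was -0.24 in microglia. In 1 cluster, of excitatory neurons, the sum was higher, at 0.046.

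**Figure D1:**
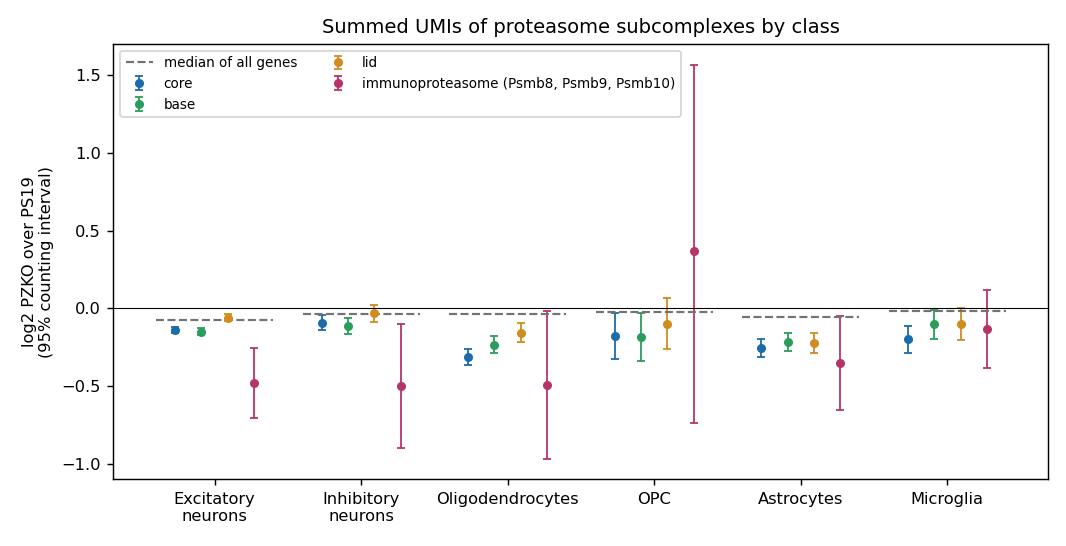
Log2 ratio of PZKO over PS19 of the summed UMIs of the core, base, lid and immunoproteasome genes in the 6 main classes, with exact 95% counting intervals, and the median of all genes with at least 100 UMIs as a dashed line. Core and base sums lie below the dashed line in each class, and the immunoproteasome intervals are the widest because these genes have few UMIs.

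The subcomplexes did not differ between the libraries by the same amount. In oligodendrocytes the core sum had a ratio of -0.31 [-0.36 to -0.26], the base -0.23 [-0.29 to -0.18] and the lid -0.16 [-0.22 to -0.094], and the intervals of core and lid did not overlap. Excitatory neurons had the same order of core and lid, with -0.14 [-0.16 to -0.12] for the core, -0.15 [-0.17 to -0.13] for the base and -0.06 [-0.084 to -0.036] for the lid, which TMM scaling moves to 0.005 [-0.019 to 0.029]. In inhibitory neurons the core was -0.091 [-0.14 to -0.045] and the base -0.11 [-0.16 to -0.064], while the interval of the lid, -0.033 [-0.086 to 0.021], held 0. Astrocytes had -0.25 [-0.31 to -0.20], -0.22 [-0.28 to -0.16] and -0.22 [-0.29 to -0.16] for core, base and lid, with overlapping intervals. In microglia the core was lower (-0.20 [-0.29 to -0.11]), as was the base (-0.10 [-0.20 to -0.0098], with an interval that holds 0 under TMM scaling), and the lid interval reached 0 (-0.10 [-0.20 to 0.0053]). OPC, the class with the fewest UMIs among the 6, had -0.18 [-0.32 to -0.031], -0.18 [-0.34 to -0.032] and -0.10 [-0.26 to 0.065]. Within the core, the alpha sum was the lower part in excitatory neurons (-0.17 [-0.19 to -0.14] against -0.089 [-0.12 to -0.052] for beta, whose interval holds 0 under TMM scaling) and in inhibitory neurons (-0.15 [-0.21 to -0.094] against 0.021 [-0.058 to 0.10]).

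Counted gene by gene, members with at least 100 UMIs over both libraries lay mostly below 0. In astrocytes 41 of 44 such members were below 0, against 58.9% of all genes, and 21 were at least 20% lower, against 19.9% of all genes. Oligodendrocytes had 42 of 43 below 0 (all genes 55.9%) and 15 that much lower (all genes 17.1%). In microglia these were 29 of 40 (all genes 53.0%) and 12 (all genes 14.8%). OPC had 15 of 20 below 0 (all genes 53.3%) and 6 that much lower (all genes 16.6%). Excitatory neurons had 38 of 44 below 0 (all genes 62.0%), but 8 that much lower, which is close to the 17.7% of all genes. In inhibitory neurons 32 of 43 were below 0 (all genes 56.0%) and 9 that much lower (all genes 16.7%). At least 25% higher was no member in excitatory neurons, inhibitory neurons and OPC, where 8.08%, 7.01% and 11.2% of all genes were, and 1 member each in oligodendrocytes (*Psmg3*), astrocytes (*Psmb7*) and microglia (*Psma8*), where 6.08%, 6.22% and 8.55% of all genes were. The median over the members was -0.31 in astrocytes and -0.29 in oligodendrocytes, and between -0.19 and -0.13 in the other 4 classes. *Psmb11*, the thymus-specific beta5 subunit, reached 100 UMIs in none of the 6 classes, and *Psma8*, the testis-enriched alpha4 subunit, in microglia alone.

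**Figure D2:**
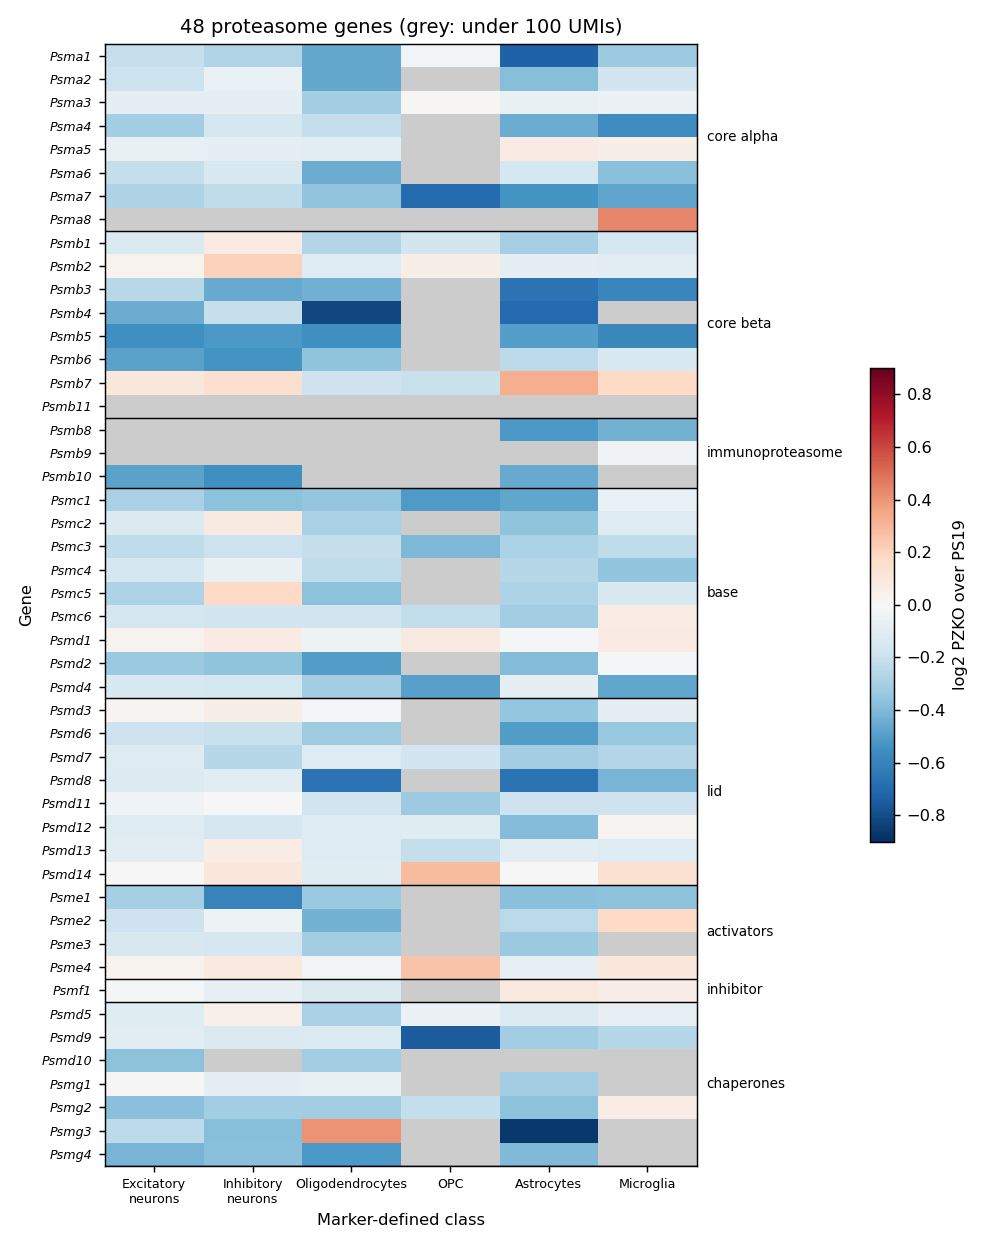
Log2 ratio of PZKO over PS19 for the 48 proteasome genes (rows, by role) in the 6 main classes (columns), blue below 0 and red above 0. Psmb5 and Psmb3 are blue in each of these classes in which they had 100 UMIs and Psma7 in all 6, while Psmb7 and Psme4 are red or near white in most.

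Among the alpha ring genes, *Psma7* (alpha4) was lower in all 6 classes. It had 3207 PS19 and 4224 PZKO UMIs in excitatory neurons (-0.27 [-0.34 to -0.21]) and 85 and 81 UMIs in OPC (-0.70 [-1.16 to -0.24]), and its ratio was -0.54 [-0.72 to -0.35] in astrocytes and -0.47 [-0.74 to -0.20] in microglia. *Psma1* (alpha6) was lower in 5 of the 6 classes. Its level in astrocytes was 56.9 CPM in PS19 and 34.4 CPM in PZKO, a ratio of -0.73 [-0.93 to -0.53] and the lowest in that class by the ranking on the interval end nearest to 0. *Psma4* (alpha3) was among the 3 lowest members in microglia with 109 PS19 and 76 PZKO UMIs (-0.57 [-1.01 to -0.13]). *Psma5* (alpha5) was not lower in any of the 5 main classes in which it had 100 UMIs, with ratios from -0.10 to 0.071, but it was lower in endothelial cells, with 71 PS19 and 49 PZKO UMIs (-0.81 [-1.36 to -0.26]). *Psma8* had 48 PS19 and 67 PZKO UMIs in microglia (14.7 CPM in PS19 and 19.9 CPM in PZKO), a ratio of 0.44 [-0.12 to 1.002], and at most 1.11 CPM in the other 5 classes in either library.

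The catalytic beta subunits behaved unequally. *Psmb5* (beta5, the chymotrypsin-like site) was lower in the 5 main classes in which it reached 100 UMIs, with ratios from -0.58 to -0.50. It had 11.2 CPM in PS19 and 7.68 CPM in PZKO in excitatory neurons (-0.55 [-0.70 to -0.39]), 11.4 CPM in PS19 and 7.98 CPM in PZKO in inhibitory neurons (-0.52 [-0.86 to -0.17]) and 23.4 CPM in PS19 and 15.95 CPM in PZKO in oligodendrocytes (-0.55 [-0.85 to -0.25]). In astrocytes it had 153 and 148 UMIs (-0.50 [-0.83 to -0.16]) and in microglia 87 and 60 UMIs (-0.58 [-1.08 to -0.09]). In endothelial cells its 64 and 67 UMIs gave -0.21 [-0.72 to 0.31]. *Psmb6* (beta1, the caspase-like site) was lower in excitatory neurons (8.30 and 5.94 CPM, -0.48 [-0.66 to -0.30]), inhibitory neurons (-0.53 [-0.89 to -0.18]) and oligodendrocytes (-0.36 [-0.67 to -0.052]), and its intervals held 0 in astrocytes (-0.24 [-0.62 to 0.15]) and microglia (-0.14 [-0.62 to 0.34]). *Psmb7* (beta2, the trypsin-like site) was higher in astrocytes, with 241 PS19 and 413 PZKO UMIs (29.8 CPM in PS19 and 37.3 CPM in PZKO, 0.33 [0.093 to 0.56]), and in excitatory neurons (0.10 [0.0015 to 0.19]). It was 0.18 [-0.17 to 0.52] in microglia, 0.14 [-0.056 to 0.34] in inhibitory neurons, -0.18 [-0.39 to 0.018] in oligodendrocytes and -0.20 [-0.74 to 0.35] in OPC. The gene of *Psmb7* overlaps *Nek6* on the other strand.

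Of the structural beta subunits, *Psmb3* (beta3) was lower in each of the 5 main classes in which it had 100 UMIs, with 21.2 and 13.4 CPM in astrocytes (-0.67 [-0.99 to -0.34]) and 17.04 and 12.4 CPM in inhibitory neurons (-0.45 [-0.73 to -0.18]), and was 0.16 [-0.29 to 0.63] in endothelial cells. *Psmb4* (beta7) had 188 PS19 and 120 PZKO UMIs in oligodendrocytes, a ratio of -0.82 [-1.16 to -0.48] and the lowest member ratio of that class, and it was -0.45 [-0.62 to -0.28] in excitatory neurons. *Psmb2* (beta4) was higher in inhibitory neurons (67.7 and 78.2 CPM, 0.21 [0.083 to 0.33]) and its interval held 0 in excitatory neurons (0.032 [-0.024 to 0.087]).

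In the base, the ATPase genes *Psmc1* and *Psmc3* were below 0 in all 6 classes. *Psmc1* had 67.9 CPM in PS19 and 52.5 CPM in PZKO in inhibitory neurons (-0.37 [-0.51 to -0.24]) and 60.1 CPM in PS19 and 43.5 CPM in PZKO in astrocytes (-0.47 [-0.65 to -0.28]), but 82.1 and 78.7 CPM in microglia (-0.061 [-0.31 to 0.19]). *Psmd4*, a ubiquitin receptor, was the lowest member in microglia by the same ranking, with 304 PS19 and 227 PZKO UMIs (-0.47 [-0.72 to -0.21]). The scaffold gene *Psmd2* was lower in 4 of the 5 main classes with 100 UMIs, with -0.50 [-0.73 to -0.27] in oligodendrocytes. *Psmd1*, the other large scaffold, was on neither side past its interval in any of the 6 classes, though higher in excitatory neurons under TMM scaling (0.094 [0.044 to 0.14]), and its level in astrocytes was 142 and 140.0 CPM (-0.02 [-0.13 to 0.091]). *Psmd1* overlaps *Htr2b* on the other strand and the gene model *Gm21972* on its own strand.

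In the lid, the deubiquitinase *Psmd14* stayed near 0 in excitatory neurons (129 and 128 CPM, -0.0047 [-0.046 to 0.037], with 0.06 [0.019 to 0.10] under TMM scaling) and astrocytes (102 and 101 CPM, -0.0064 [-0.14 to 0.13]) and was higher in inhibitory neurons (109.7 and 118 CPM, 0.10 [0.0012 to 0.20]). *Psmd8* was lower in oligodendrocytes, with 200 PS19 and 142 PZKO UMIs (-0.67 [-0.99 to -0.35]), and in astrocytes (-0.66 [-1.004 to -0.33]). *Psmd6* and *Psmd7* were lower in astrocytes (-0.50 [-0.77 to -0.23] and -0.32 [-0.48 to -0.15]). *Psmd7* was also lower in inhibitory neurons (-0.26 [-0.39 to -0.12]), and its lower values in excitatory neurons and microglia (-0.11 [-0.18 to -0.051] and -0.26 [-0.52 to -0.004]) have intervals that hold 0 under TMM scaling.

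The immunoproteasome genes differed far more between classes than between libraries. *Psmb8*, *Psmb9* and *Psmb10* together had 215 CPM in PS19 and 159 CPM in PZKO in T cells, a class of 33 and 36 nuclei with 17 and 15 UMIs. Endothelial cells had 161 CPM in PS19 and 160.1 CPM in PZKO, and microglia 84.9 CPM in PS19 and 77.5 CPM in PZKO. Astrocytes had 22.2 and 17.4 CPM, and oligodendrocytes 9.26 and 6.59 CPM. Inhibitory neurons had 8.48 and 5.995 CPM and excitatory neurons 5.23 and 3.75 CPM. The Poisson intervals of T cells and endothelial cells overlapped, while those of endothelial cells, microglia and astrocytes did not overlap one another within a library. The 3 genes were not distributed alike. *Psmb9* (beta1i) had 43.2 CPM in PS19 and 42.2 CPM in PZKO in microglia and 0.257 CPM in PS19 and 0.225 CPM in PZKO in excitatory neurons. *Psmb8* (beta5i) had 80.3 CPM in PS19 and 65.7 CPM in PZKO in endothelial cells, 31.9 CPM in PS19 and 23.8 CPM in PZKO in microglia and 0.633 CPM in PS19 and 0.408 CPM in PZKO in excitatory neurons. *Psmb10* (beta2i) was spread more evenly, with 46.5 CPM in PS19 and 54.4 CPM in PZKO in endothelial cells, 9.80 CPM in PS19 and 11.6 CPM in PZKO in microglia, 9.75 CPM in PS19 and 7.13 CPM in PZKO in astrocytes and 4.35 CPM in PS19 and 3.11 CPM in PZKO in excitatory neurons. *Psmb8* and *Psmb9* lie close together in the MHC region (chromosome 17, 34197721 to 34201454, plus strand, and chromosome 17, 34181987 to 34187764, minus strand), where *Psmb9* overlaps *Tap1*, and *Psmb10* lies elsewhere (chromosome 8, 105935735 to 105938444). Both *Psmb8* and *Psmb10* overlap an antisense gene.

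**Figure D3:**
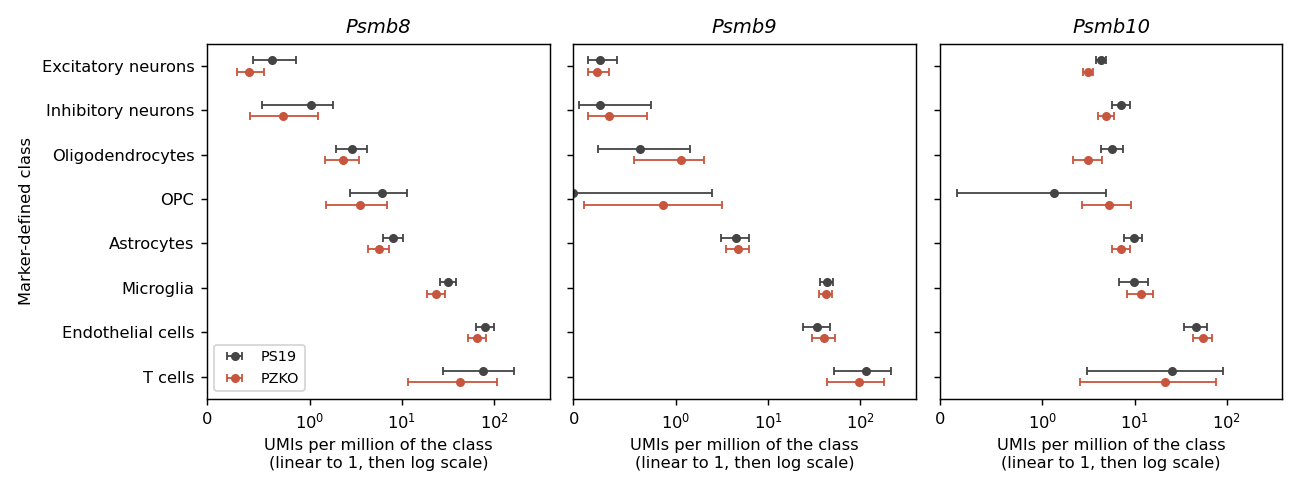
Level of Psmb8, Psmb9 and Psmb10 in 8 marker-defined classes of the PS19 (dark) and PZKO (red) library, in UMIs per 1000000 UMIs of the class with exact Poisson intervals, on an axis that is linear to 1 and logarithmic above. The classes are spread over a wide range for Psmb9, while the intervals of both libraries overlap in most classes.

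Between the libraries, the immunoproteasome sum was lower in PZKO in excitatory neurons, with 306 PS19 and 349 PZKO UMIs (-0.48 [-0.71 to -0.26]), in inhibitory neurons (98 and 121 UMIs, -0.50 [-0.90 to -0.10]), in oligodendrocytes (86 and 69 UMIs, -0.49 [-0.97 to -0.017]) and in astrocytes (180 and 193 UMIs, -0.35 [-0.65 to -0.049]). The calls in oligodendrocytes and astrocytes are lost under TMM scaling, with -0.46 [-0.94 to 0.014] and -0.30 [-0.60 to 0.00083], and under DESeq2 size factors. These genes each span under 10 kb. All genes under 10 kb had medians of -0.24 in excitatory neurons, -0.27 in inhibitory neurons, -0.28 in oligodendrocytes and -0.32 in astrocytes. Except in excitatory neurons, these medians lie inside the intervals of the sums. The part of gene span in the sums was not tested. In microglia the immunoproteasome sum had 277 PS19 and 261 PZKO UMIs, and the interval held 0 (-0.13 [-0.38 to 0.12]), but without removal of doublets the ratio was -0.46. Endothelial cells had 176 PS19 and 212 PZKO UMIs (-0.0038 [-0.30 to 0.29]). In OPC the 11 and 22 UMIs did not allow a difference to be detected (0.37 [-0.73 to 1.56]). By gene, *Psmb8* in microglia had 104 PS19 and 80 PZKO UMIs (-0.42 [-0.86 to 0.011]), and *Psmb9* had 141 PS19 and 142 PZKO UMIs (-0.035 [-0.38 to 0.31]). *Psmb10* in microglia had 32 PS19 and 39 PZKO UMIs, under the minimum of 100. In excitatory and inhibitory neurons *Psmb10* supplied most of the sum, and its ratios were -0.48 [-0.73 to -0.23] and -0.55 [-0.98 to -0.11]. In astrocytes *Psmb8* was -0.52 [-1.04 to 0.0054] and *Psmb10* -0.45 [-0.92 to 0.018], and *Psmb9* had 36 and 52 UMIs. The microglia marker list (9 of 9 markers with UMIs in each library) had a summed level of 48.1 and 37.05 CPM in excitatory neurons, 78.01 and 52.9 CPM in inhibitory neurons, 122 and 88.6 CPM in oligodendrocytes and 111 and 94.5 CPM in astrocytes in PS19 and PZKO, lower in PZKO in each of them. Its part in the lower immunoproteasome sums was not tested. In microglia the macrophage list (5 of 7 markers with UMIs in PS19, 6 of 7 in PZKO) summed to 109 and 104 CPM. The T cell list (4 of 9 and 6 of 9) summed to 1030 and 1004 CPM there, and the endothelial list (8 of 8 in both) to 127 and 175 CPM. The T cell list includes *Ptprc*, which is not restricted to T cells, so its sum does not measure T cell transcripts in microglia. The part of these lists was not tested.

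The share of *Psmb8*, *Psmb9* and *Psmb10* among the UMIs of these and the subunits they replace was taken, to be read across classes and libraries and not across genes. It counts transcripts in nuclei and does not measure which subunits are built into the proteasome. Over all nuclei *Psmb7* supplied 2891 of 5522 PS19 and 4481 of 7201 PZKO UMIs of the replaced subunits. In microglia this share was 48.2% (44.02 to 52.3) in PS19 and 47.5% (43.3 to 51.8) in PZKO. Endothelial cells had 47.3% (42.1 to 52.5) and 49.9% (45.03 to 54.7). It was 26.5% (23.2 to 29.96) and 22.01% (19.3 to 24.9) in astrocytes, 9.57% (7.72 to 11.7) and 8.56% (6.72 to 10.7) in oligodendrocytes, and 10.8% (9.67 to 11.99) and 8.76% (7.90 to 9.68) in excitatory neurons. The intervals of the libraries overlapped in each of these classes, though barely in excitatory neurons. By pair, microglia had a *Psmb9* share of 64.4% (57.7 to 70.7) and 66.05% (59.3 to 72.3) against *Psmb6* and a *Psmb10* share of 19.4% (13.7 to 26.3) and 20.1% (14.7 to 26.4) against *Psmb7*. In endothelial cells the *Psmb10* share was 42.1% (33.2 to 51.5) and 51.1% (42.5 to 59.6), with intervals above those of microglia in both libraries. The intervals of the *Psmb10* share did not overlap between libraries in astrocytes, 24.7% (20.1 to 29.8) in PS19 and 16.1% (12.9 to 19.6) in PZKO, in excitatory neurons, 15.5% (13.7 to 17.3) and 10.9% (9.75 to 12.2), in inhibitory neurons, 20.9% (16.97 to 25.2) and 14.02% (11.5 to 16.8), and in dentate granule-like nuclei, 12.4% (9.47 to 15.8) and 5.78% (3.34 to 9.21). In astrocytes *Psmb10* itself had 79 and 79 UMIs, out of class totals of 8100460 and 11072881 UMIs. Its CPM was thus smaller in PZKO, without being called lower. *Psmb7* had 241 and 413 UMIs there (29.8 and 37.3 CPM). *Psmb10* and *Psmb7* span 2.71 and 56.1 kb, and the part of gene span in this share was not tested.

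**Figure D4:**
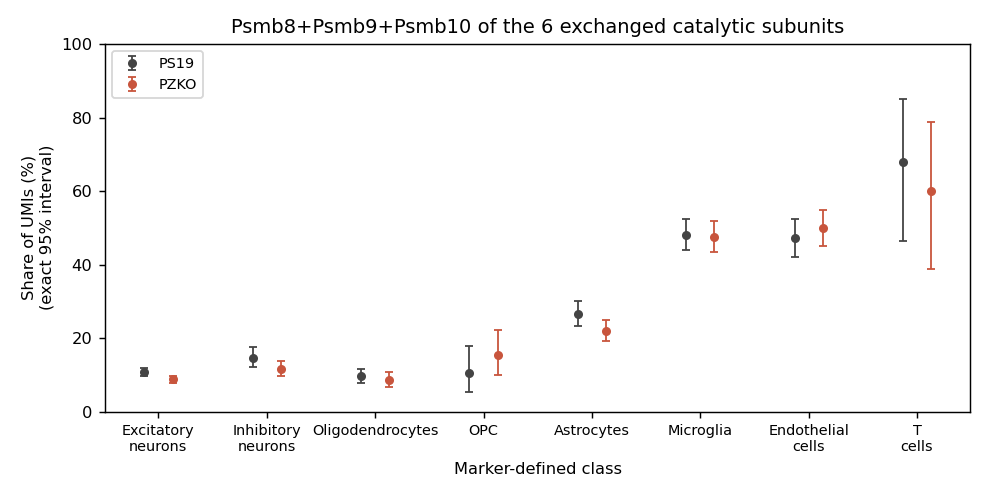
Share of Psmb8, Psmb9 and Psmb10 among the UMIs of these genes and Psmb5, Psmb6 and Psmb7 in 8 classes, for the PS19 (dark) and PZKO (red) library, with exact 95% binomial intervals for counting error. Microglia and endothelial cells lie close together at about equal parts, astrocytes between 22.0% and 26.5%, and neurons, oligodendrocytes and OPC between 8.56% and 15.3%.

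The activators open the core gate without the base and lid. *Psme1* and *Psme2* encode the interferon-inducible PA28 ring, *Psme3* its nuclear form and *Psme4* the nuclear PA200. *Psme1* was lower in 4 of the 5 main classes in which it had 100 UMIs, and was 0.048 [-0.26 to 0.36] in endothelial cells. It had 98.3 CPM in PS19 and 76.3 CPM in PZKO in microglia (-0.37 [-0.61 to -0.12]), 14.9 CPM in PS19 and 9.81 CPM in PZKO in inhibitory neurons (-0.60 [-0.90 to -0.30], the lowest member of that class by the ranking), 23.7 CPM in PS19 and 18.2 CPM in PZKO in astrocytes (-0.38 [-0.67 to -0.085]) and 8.16 CPM in PS19 and 6.64 CPM in PZKO in excitatory neurons (-0.30 [-0.47 to -0.12]). *Psme2* had 106 PS19 and 124 PZKO UMIs in microglia (0.18 [-0.20 to 0.57]) and 61 and 100 UMIs in endothelial cells (0.44 [-0.033 to 0.92]). It was lower in oligodendrocytes (-0.43 [-0.85 to -0.0051]), a call that is lost under TMM and DESeq2 scaling, where the interval holds 0. A near-identical copy, *Psme2b*, is in the annotation and could share its reads. *Psme3* was below 0 in 4 of 4 main classes with 100 UMIs, and none of its intervals excluded 0 (-0.14 [-0.28 to 0.0004] in excitatory neurons). *Psme4* was higher in excitatory neurons (247 and 253 CPM, 0.032 [0.0023 to 0.062]), inhibitory neurons (219 and 233 CPM, 0.09 [0.019 to 0.16]) and OPC (182 and 218 CPM, 0.26 [0.039 to 0.47]), and lower in astrocytes (344 and 327 CPM, -0.074 [-0.15 to -0.002]). With TMM scaling the astrocyte interval holds 0 (-0.024 [-0.10 to 0.048]). The inhibitor *Psmf1* (PI31) had intervals that held 0 in the 5 main classes with 100 UMIs, such as 0.091 [-0.22 to 0.40] in astrocytes.

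The assembly chaperones were mostly below 0. Their sum was -0.30 [-0.43 to -0.17] in astrocytes, -0.20 [-0.32 to -0.073] in oligodendrocytes and -0.18 [-0.23 to -0.14] in excitatory neurons, and its interval held 0 in microglia (-0.18 [-0.37 to 0.02]). *Psmg2*, a partner in alpha ring assembly, was lower in 4 main classes, with 21.97 and 16.97 CPM in excitatory neurons (-0.37 [-0.48 to -0.27]), and was 0.066 [-0.32 to 0.45] in microglia. *Psmg3* had 68 PS19 and 51 PZKO UMIs in astrocytes (-0.87 [-1.42 to -0.32]), and 77 and 115 UMIs in oligodendrocytes (0.41 [-0.023 to 0.84]). The gene model *Gm26938* overlaps *Psmg3* on its own strand over 2816 bases of its 3.29 kb, so their reads may not be separable. *Psmd9* was among the lowest members in OPC, with 61 and 56 UMIs (-0.75 [-1.30 to -0.20]). It overlaps 3 genes on the other strand.

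Among excitatory neurons, nuclei named by further markers were compared on their own, because the share of dentate granule-like nuclei differed between libraries (1009 nuclei in PS19 and 513 in PZKO). The other excitatory clusters took no such name and hold most PZKO nuclei of the class. Each of them had more nuclei in PZKO, such as a cluster of 76 and 182 and a cluster of 18 and 73. Their 26S ratios ran from -0.23 to 0.046. The 26S sum was -0.15 [-0.19 to -0.12] in dentate granule-like nuclei, -0.14 [-0.17 to -0.10] in CA1-like nuclei and -0.074 [-0.11 to -0.037] in CA3-like nuclei. At least 20% lower were 9 of 42 members in dentate granule-like nuclei (all genes 18.1%), 8 of 42 in CA1-like nuclei (all genes 14.3%) and 8 of 39 in CA3-like nuclei (all genes 14.0%). The immunoproteasome sum had 70 PS19 and 23 PZKO UMIs in dentate granule-like nuclei (4.57 CPM in PS19 and 2.06 CPM in PZKO, -1.15 [-1.89 to -0.45]). In CA1-like nuclei it was -0.34 [-0.96 to 0.28] and in CA3-like nuclei 0.16 [-0.47 to 0.80], with intervals that held 0 and overlapped that of dentate granule-like nuclei, narrowly in CA3.

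The ratios moved with the length of the gene, which was no part of the choice of members. The members span 2.49 to 109 kb on the genome, and *Psmb5*, *Psmb6*, *Psmb8*, *Psmb9*, *Psmb10* and *Psme1* are all under 6 kb, while *Psmb7*, *Psmd14* and *Psme4* span 56.1, 88.7 and 109 kb. Across all genes with at least 100 UMIs, Spearman's rho between the log2 ratio and the span was 0.34 in OPC to 0.52 in astrocytes, and across the members it was 0.46 in oligodendrocytes to 0.69 in excitatory neurons. These are descriptions across genes of the same pair of libraries, and genes are not independent replicates. In excitatory neurons the median of members under 10 kb was -0.27 against -0.24 for all genes of that span, and from 10 to 30 kb -0.13 against -0.11. In astrocytes the members were below genes of like span, with -0.44 against -0.32 under 10 kb, -0.33 against -0.13 from 10 to 30 kb and -0.12 against 0.0058 from 30 to 100 kb. Oligodendrocytes had -0.33 against -0.28, -0.28 against -0.10 and -0.15 against 0.024 in the same ranges. In microglia members under 10 kb were at -0.36 against -0.25, and those from 10 to 30 kb at -0.069 against -0.08. In inhibitory neurons the order was the reverse under 10 kb, with -0.20 for members and -0.27 for all genes.

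**Figure D5:**
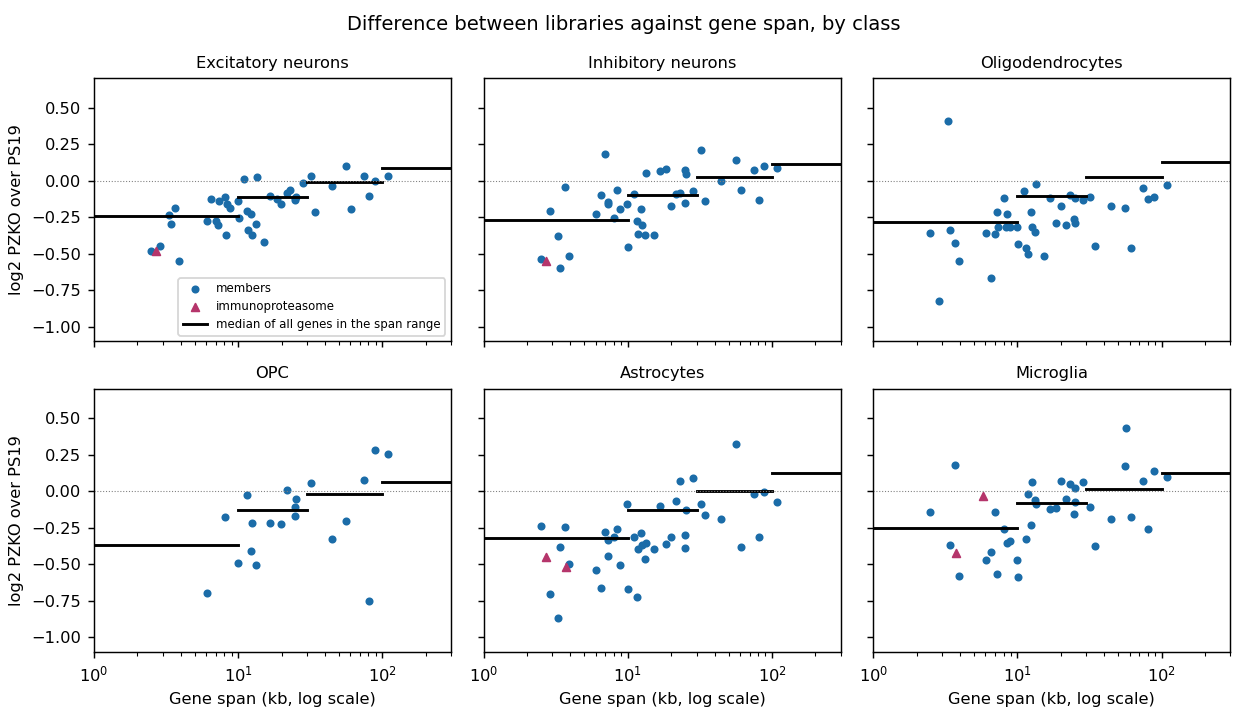
Log2 ratio of PZKO over PS19 against gene span (kb, log scale) for members with at least 100 UMIs in the 6 main classes, immunoproteasome genes as triangles, with the median of all genes in each of 4 span ranges as black bars. Short members tend to lie lower than long ones in each class, and in astrocytes and oligodendrocytes most members lie under the black bars. Psmd9, long by its GENCODE span though its RefSeq promoter window lies inside that span, is low in OPC.

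Other values also differed between the libraries. The median share of mitochondrial UMIs was lower in PZKO in all 6 classes, 0.265% against 0.184% in excitatory neurons and 0.673% against 0.521% in oligodendrocytes. The 42 listed ribosomal protein genes had medians of -0.57 (inhibitory neurons) to -0.46 (microglia), and each one with 100 UMIs was below 0 in each class. The 13 mitochondrially encoded genes had medians of -1.19 to -0.58. Listed nuclear long noncoding RNAs had medians above 0, 0.11 to 0.45, while their summed level was lower in all 6 classes, by ratios of -0.28 to -0.10. Most of that sum was *Malat1*, with 5700116 of 6382772 PS19 UMIs in excitatory neurons. *Malat1* was itself lower in each class, from -0.36 in inhibitory neurons to -0.11 in microglia. Markers of all other classes summed to 2252 CPM in PS19 and 1788 CPM in PZKO in astrocytes and to 4201 and 3572 CPM in oligodendrocytes. They were also lower in PZKO in excitatory neurons and microglia but not in inhibitory neurons (2669 and 2679 CPM) and OPC (7987 and 8345 CPM). In OPC the inhibitory neuron list alone gave 5291 and 5349 CPM. A class can itself express genes of another class's list, so these sums do not measure transcripts from other cells. The choroid plexus list was lower in each of the 6 classes, with 427 and 63.5 CPM in astrocytes, 852 and 100.3 CPM in oligodendrocytes and 816 and 111 CPM in microglia. Endothelial cells differed from the 6 classes in these values, with 0.04 for the ribosomal and 0.022 for the mitochondrially encoded median and a mitochondrial share of 1.05% and 1.11%. There the 26S sum was 2705 and 2584 CPM, with an interval that held 0 (-0.066 [-0.14 to 0.0055]), and 3 of 34 members were at least 20% lower (all genes 11.5%) and 3 at least 25% higher (all genes 12.4%). Of its 3 clusters, the one with the most nuclei (213 in PS19 and 214 in PZKO) had a lower 26S sum, -0.20 [-0.33 to -0.073], while a cluster of 60 and 53 nuclei supplied 1668 and 2151 of the UMIs at -0.055 [-0.15 to 0.039]. In pericytes and mural cells the 26S sum was lower (-0.22 [-0.37 to -0.061]), where the mitochondrial share was 0.629% and 0.723%, the mitochondrially encoded median 0.15 and the ribosomal sum -0.053 [-0.15 to 0.045]. The part of gene span, mitochondrial share, depth and transcripts from other cells in the lower proteasome ratios was not tested.

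The genes that work with the proteasome but lie outside the symbol rule were taken from fixed lists. The list of partners holds 25 genes (24 in the files), among them the further lid subunit *Sem1*, the assembly factor *Pomp*, ubiquitin shuttles and the transcription factor *Nfe2l1*. Its median was -0.11 in excitatory neurons, -0.13 in oligodendrocytes, -0.05 in astrocytes and -0.01 in microglia, nearer to 0 than that of the members in each of these. By the interval, lower were 10 of 24 partners in astrocytes and 11 of 24 in oligodendrocytes, where 2 were higher, and 2 of 23 in microglia. Of all genes 23.1%, 20.9% and 13.7% were lower by this rule in these classes, and 15.3% were higher in oligodendrocytes. Of the members 26 of 44, 25 of 43 and 9 of 40 were lower. *Sem1* was among the lowest in astrocytes (37.3 and 26.3 CPM, -0.50 [-0.74 to -0.27]) and in microglia (64.3 and 46.02 CPM, -0.48 [-0.79 to -0.18]). *Nfe2l1*, which drives proteasome genes when the proteasome is inhibited, was among the lowest in inhibitory neurons (90.2 and 64.4 CPM, -0.49 [-0.60 to -0.37]), oligodendrocytes (-0.46 [-0.61 to -0.30]) and OPC (-0.40 [-0.80 to -0.0023], with an interval that holds 0 under TMM scaling). By the interval end nearest to 0, *Fbxo7*, a ubiquitin ligase subunit that binds the inhibitor *Psmf1*, was the highest in oligodendrocytes (163 and 188 CPM, 0.21 [0.11 to 0.30]). By the same ranking *Ddi2*, the protease that activates *Nfe2l1*, was the highest in inhibitory neurons (0.21 [0.074 to 0.34]).

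The ubiquitin genes showed a larger difference than the subunits. *Ubb*, one of the polyubiquitin genes, was the lowest of its list in all 6 classes. It had 64.03 CPM in PS19 and 35.2 CPM in PZKO in excitatory neurons (-0.86 [-0.93 to -0.79]), 125 CPM in PS19 and 66.3 CPM in PZKO in astrocytes (-0.92 [-1.06 to -0.78]) and 212 CPM in PS19 and 107 CPM in PZKO in microglia (-0.98 [-1.17 to -0.79]). *Rps27a*, a fusion of ubiquitin with a ribosomal protein, was -0.55 [-0.64 to -0.46] in excitatory neurons and -0.69 [-0.86 to -0.52] in astrocytes. The ubiquitin-activating enzyme gene *Uba6* was higher in excitatory neurons (53.5 and 57.8 CPM, 0.11 [0.049 to 0.18]) and OPC (0.49 [0.058 to 0.93]).

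Genes next to the immunoproteasome in function went in different directions in microglia. Of the interferon-stimulated list, 17 of 21 genes had 100 UMIs there, and all 17 were above 0, 16 past the interval and 14 by at least 25%, with a median of 0.50. Of all genes 12.4% were past the interval on that side and 8.55% at least 25% higher. *Rsad2*, an antiviral enzyme, had 13 PS19 and 115 PZKO UMIs (3.10 [2.27 to 4.05]), and *Ifit2*, which binds viral RNA, had 74 PS19 and 240 PZKO UMIs (1.65 [1.27 to 2.05]). The minimum is taken over both libraries together, and *Rsad2* reached it through the PZKO library. The sum over all 21 listed genes, with no minimum, had a ratio of 0.53 [0.48 to 0.58]. Over the same nuclei *Psmb8* and *Psmb9* had ratios of -0.42 and -0.035, and *Psme1* was lower. *Psme2* was at 0.18 [-0.20 to 0.57], and *Psmb10* had 32 PS19 and 39 PZKO UMIs, under the minimum of 100. Of the class I presentation list, *H2-D1* (297 and 183 CPM, -0.70 [-0.84 to -0.55]) and *Pdia3* (-0.68 [-0.85 to -0.52]) were the lowest, and *Nlrc5*, the activator of class I genes, the highest (157 and 189 CPM, 0.26 [0.095 to 0.43]). In oligodendrocytes, astrocytes and both neuron classes *B2m*, the light chain of class I molecules, was among the lowest 2 of the list, with 77.8 and 39.8 CPM (-0.97 [-1.14 to -0.79]), 69.3 and 40.9 CPM (-0.76 [-0.94 to -0.58]), 15.3 and 9.18 CPM (-0.74 [-0.87 to -0.60]) and 17.4 and 8.87 CPM (-0.97 [-1.27 to -0.67]) in that order. The interferon-stimulated list had a median of -0.087 in astrocytes and 0.15 in excitatory neurons. A higher sum over its 21 genes was not particular to microglia. It was 0.81 [0.70 to 0.91] in dentate granule-like nuclei and 0.66 [0.44 to 0.88] in choroid plexus cells. Endothelial cells had 0.26 [0.18 to 0.35] and oligodendrocytes 0.13 [0.0555 to 0.21]. The sum was lower in OPC (-0.29 [-0.44 to -0.13]), and its interval held 0 in astrocytes and inhibitory neurons. The difference between the lists was not tested.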

How the data were processed

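Nuclei of the hippocampus were profiled by single-nucleus RNA-seq (10x Genomics, 3′ end), with 1 library per genotype. The authors deposited raw UMI counts per gene and nucleus, made with Cell Ranger (version 7.0.1 per the labels, 8.0.1 per the file headers) on the mouse genome mm10. The correction for free RNA, doublet removal and integration described in the study's methods are not part of these counts. The deposited matrices held 11469 PS19 nuclei with 116488513 UMIs and 10920 PZKO nuclei with 171167884 UMIs.

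Nuclei with at least 600 UMIs, 300 genes and at most 5% mitochondrial UMIs were kept (10466 and 10128). The nuclei with the highest Scrublet scores (876 and 821, by a rate of 0.8% per 1000 nuclei) were removed as putative doublets. The rest were clustered with scanpy 1.11.5 (2000 variable genes, 30 components, 20 neighbours, Leiden resolution 1) and named from marker lists. The naming thresholds were chosen with the clusters already in view. 4 clusters stayed unnamed. UMIs were summed per class and library, and the log2 ratio was taken over the class totals, with exact binomial intervals (SciPy 1.17.1) and exact Poisson intervals for levels. They cover counting error only. Ratios and their intervals were tried on counts simulated under the Poisson model that the intervals assume. The simulation held no variation between nuclei, animals or libraries, so it checks the computation only. Counts of members were made over genes with at least 100 UMIs in both libraries together.

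Named are, per class, the exchanged subunits, the activators, and the 3 members lowest and highest by the interval end nearest to 0, with the 2 lowest and highest of each further list. Other members were named after their values were seen. Members and lists were chosen with earlier results of these data known. 22 of the 48 members overlap another annotated gene, 9 of them on the same strand, and reads of such pairs may not be separable. Scaling by edgeR 4.0.16 (TMM) and DESeq2 1.42.0 (size factors), means over nuclei, other minimums, subtraction of 10% free RNA, stricter nucleus filters, no removal of doublets, Leiden resolution 0.5 and equal weights of excitatory clusters were tried as alternatives. Promoter windows are RefSeq's (GRCm38.p6). 8 members had none.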

Additional observations from a re-analysis of the deposited data

Results flagged for a closer look

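*Psme4*, the nuclear activator PA200, had counting intervals on opposite sides of 0 in different classes among the 6 main ones. Its log2 ratio of PZKO over PS19 was -0.074 in astrocytes, and 0.032 in excitatory neurons, 0.090 in inhibitory neurons and 0.255 in OPC. The difference between the classes was not tested. With TMM scaling the astrocyte value was -0.024 and its interval held 0.

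Nuclei of the 4 unnamed clusters (416 in PS19 and 350 in PZKO) entered none of the comparisons by class. Their pooled 26S sum was 4406 PS19 and 6874 PZKO UMIs (1427 and 1158 CPM), a log2 ratio of -0.30 with an interval of -0.36 to -0.25. By cluster the ratios were -0.11 [-0.24 to 0.032], -0.15 [-0.22 to -0.080], -0.14 [-0.29 to 0.012] and -0.36 [-0.56 to -0.16]. The pooled ratio thus lies below all but the last, which had 285 and 860 UMIs. The part of the mix of clusters in the pooled ratio was not tested.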

How the results depend on the processing

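The 26S sums stayed below 0 in all 43 values under the alternatives, from -0.25 to -0.046, and the immunoproteasome sums of excitatory neurons, oligodendrocytes, astrocytes and microglia in all 29, from -0.61 to -0.035. Of the 26S sums, 8 moved by more than the counting interval. With TMM scaling they were -0.053 in excitatory neurons, -0.050 in inhibitory neurons and -0.18 in astrocytes. With DESeq2 size factors they were -0.046, -0.046 and -0.18 in the same order and -0.20 in oligodendrocytes. Both scalings bring the median of all genes to about 0. Without removal of doublets the microglia 26S sum was -0.24 and the immunoproteasome sum -0.46, and 22 of 44 rather than 12 of 40 members were at least 20% lower, against 22.9% and 14.8% of all genes; the class then held further clusters, and the cause was not tested.

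Other counts of members at least 20% lower that changed were 5 in excitatory neurons under TMM and 5 under DESeq2, 5 in inhibitory neurons with the stricter filter and 4 with a minimum of 300 UMIs, 16 in OPC with a minimum of 1 UMI and 0 with 300, and 4 in microglia with 300. Members at least 25% higher were 1, 2, 3, 9 and 2 in excitatory neurons, inhibitory neurons, oligodendrocytes, OPC and astrocytes with a minimum of 1 UMI. They were 1 in inhibitory neurons with the stricter filter, 0 in oligodendrocytes with 300 UMIs, 0 in astrocytes for means over nuclei, and 0 in microglia with the stricter filter, without removal of doublets and with 300 UMIs. The minimum sets how many genes are counted. Without removal of doublets 13.9% of all genes were at least 25% higher in microglia. Under the other settings of this paragraph the share of all genes was not computed, so these counts cannot be set against it. Under TMM scaling 88 of the 109 calls of a member as lower were kept and under DESeq2 size factors 85, and the calls of the 26S sum as lower were kept in all 6 classes. Calls of a member as higher went from 7 to 11 under TMM scaling and to 12 under DESeq2 size factors. The share of all genes was not computed for these calls either. For named members, 471 of 479 values moved by less than the counting interval, and none that was called lower or higher changed sign. Members near 0 that were not called could change sign, such as *Psmd14* in excitatory neurons under TMM scaling.

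No paired analysis was possible because each genotype is 1 library, and for the same reason leaving out a library gives no value. Depth limits the immunoproteasome genes most, with 33 UMIs over both libraries in OPC. Differences among the pooled animals, in dissection or in sequencing cannot be told apart from genotype.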

Other observations

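Over all nuclei, *Psmb8* was the lowest member, with 376 PS19 and 337 PZKO UMIs (3.73 CPM in PS19 and 2.22 CPM in PZKO) and a log2 ratio of -0.75 [-0.97 to -0.54]. Within the 2 main classes in which it had 100 UMIs the ratio was nearer to 0, -0.42 [-0.86 to 0.011] in microglia and -0.52 [-1.04 to 0.0054] in astrocytes, and both intervals held 0. Microglia were 9.89% of nuclei in PS19 and 8.13% in PZKO. The ratio is taken over UMIs, of which microglia held 3264530 of 100729375 in PS19 and 3368112 of 151995959 in PZKO. Endothelial cells held 1096239 and 1323990 of them. The part of the class makeup in the value over all nuclei was not tested.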
